A study of Homo sapiens with 4 samples.

Results

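The PAF1 complex and the factors that work with it in transcription elongation were examined in the H9 line of human embryonic stem cells. The set held 10 genes of the 60671 in the deposited table, chosen by symbol for the proteins they encode: PAF1, CDC73, LEO1, CTR9 and RTF1 of the PAF1 complex, SUPT5H and SUPT4H1 of DSIF, SUPT6H, and CDK9 and CCNT1 of P-TEFb. All 10 symbols were found once each in the table. The study raises an association with LEO1 as 1 possible link between elongation and CFIm25, a subunit of the mRNA 3′ cleavage factor CFIm, and the RNAs of the elongation genes were compared between the cell lines of the series.

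There were 4 libraries of poly(A)+ RNA in 2 groups of 2. One was H9 with the genotype label control; the study has both untransfected H9 and mock cells given the empty CRISPR vector as controls, its text sets the re-expressing cells against the mock cells, and the labels do not say which were used. In the other, KO+OE, CFIm25 was edited (labelled as a knockout in the sample titles and as a knockdown in the series title) and a 3Flag-tagged CFIm25 was overexpressed. Per the study, the edited cells were single-cell clones made with CRISPR/Cas9, which kept a shortened CFIm25 protein at a low level. The study put the tagged protein back into 1 such clone with a lentiviral vector carrying an EF1 promoter. Both groups were grown in mTeSR medium with no treatment. The labels do not say whether replicates came from separate cultures, so the p-values measure only the spread between these libraries, which may be technical. Edited cells without re-expression were not analysed here, and the comparison asks whether the elongation genes stood at control level in the re-expressing cells.

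RNA polymerase II pauses shortly after it starts a gene. DSIF, a dimer of SPT5 and SPT4, takes part in that pause together with NELF. P-TEFb, the kinase CDK9 bound to a cyclin T, then phosphorylates DSIF, NELF and the polymerase and releases it. During productive elongation the PAF1 complex and the histone chaperone SPT6 travel with the polymerase, and the PAF1 complex is needed for histone marks laid down over transcribed genes.

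CFIm25 recognises the sequence UGUA in the 3′ part of pre-mRNAs. For each of the 5 PAF1 complex genes, a stretch of 30 bases with the most TGTA in its annotated 3′ untranslated region is shown. This lets a reader see how the motif occurs in the genes of the complex itself. Of tied stretches, the one with its TGTA nearest the middle was taken, then the first. Each stretch was read from the canonical transcript of GENCODE release 44 on the sense strand, with every TGTA in capitals.
PAF1: gtttcccacaaaaTGTAgcacaacgaaggt
CDC73: tctagtcTGTAatggaaatTGTAtattttg
LEO1: tttatTGTAcagttataaataTGTAaacat
CTR9: aatagTGTAatactgcagcgaTGTAgataa
RTF1: agagtgTGTAtgtgtgtgtgTGTAagtgtg
Counted from the first base after the stop codon, these stretches lie at bases 256 to 285 of 362 in PAF1, 192 to 221 of 4103 in CDC73, 30 to 59 of 131 in LEO1, 499 to 528 of 641 in CTR9 and 585 to 614 of 2876 in RTF1. PAF1 had 1 TGTA in its stretch and the other genes had 2. Over the 3′ untranslated regions of the genes tested, 12.6% of all stretches of this length held at least 1 TGTA and 0.976% held at least 2. The stretches were picked for the motif, so these shares describe them and test nothing.

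The deposited values carried no unit and were read as TPM. In TPM, reads of a gene are divided by its transcript length and scaled to a common total per library. This allows for length when genes are compared, but not for base composition. The lowest genes of the set were also its poorest in G and C, as described below, so ratios between genes are of measured levels only. Each library summed to between 986853 and 987078 TPM, and between 12179 and 12332 genes were listed at 1 TPM or more. The table holds no read counts, so the depth is unknown. The stem cell markers POU5F1, SOX2 and NANOG were at 2164 to 2212 TPM, 18.19 to 19.36 TPM and 15.85 to 19.89 TPM. Of 15 markers of germ layers and fibroblasts, 9 were under 1 TPM in all libraries, SOX17 was at 0 throughout, and 6 were above. Of the fibroblast list, those were THY1 (1228 to 1352 TPM), VIM (496 to 514 TPM), COL1A1 (53.86 to 55.6 TPM) and COL1A2 (12.99 to 14.47 TPM). COL3A1, the remaining gene of that list, was at 0 to 0.02 TPM. The others above 1 TPM were NES (79.59 to 82.77 TPM) of the ectoderm list and GATA6 (4.35 to 8.39 TPM) of the endoderm list. THY1 and VIM made up most of the sum of the 15 markers, which was 1880 to 2025 TPM in the control libraries against 1953 to 2013 TPM in KO+OE. Which cells of the culture expressed these markers, the stem cells or others, was not tested. NUDT21, the gene for CFIm25, measured 160.67 and 152.20 TPM in the control libraries against 162.09 and 156.60 TPM in the KO+OE libraries, so the groups overlapped (log2 fold change 0.027 on the scale log2(TPM + 1) used throughout, which understates changes of low genes, 95% interval -0.09 to 0.14, limma adjusted p = 0.980). A per-gene level does not tell RNA of the edited locus from RNA of the vector.

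The 10 elongation genes spanned a wide range of levels. DSIF, CDK9, PAF1 and SUPT6H were well expressed, RTF1 was intermediate, and CDC73, LEO1, CTR9 and CCNT1 lay near 1 TPM. Averaged over the 4 libraries, SUPT4H1 stood at 81.2 ± 3.15 TPM (SD, n = 4) and CCNT1 at 0.728 ± 0.192 TPM (SD, n = 4). The ranges of neighbours in the order did not overlap from SUPT4H1 down through SUPT5H, CDK9, PAF1, SUPT6H and RTF1 to CDC73. The narrowest of these steps was from PAF1 to SUPT6H, a ratio of means of 1.12, and the widest was from RTF1 to CDC73, a ratio of 5.31. CDC73, LEO1, CTR9 and CCNT1, the lowest genes of the set, overlapped each with the next and did not differ beyond their spread.

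**Figure D1:**
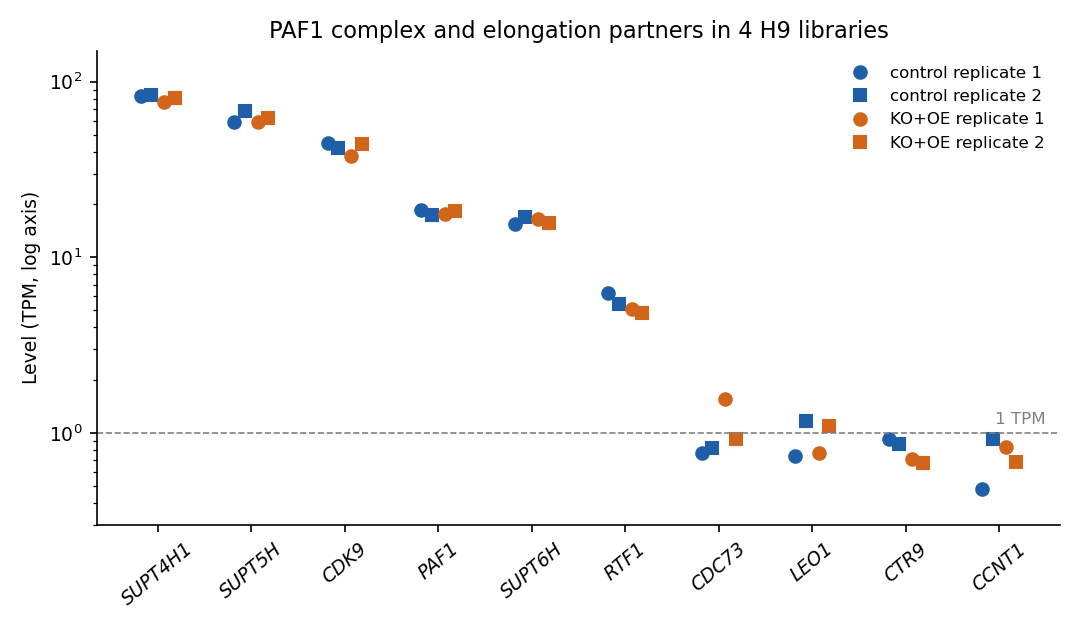
Level of each gene in TPM (log axis) in the 4 libraries, ordered by the mean; circles are replicate 1 and squares replicate 2, blue is control and orange is KO+OE, and the dashed line marks 1 TPM. Blue and orange points lie close together for the high genes, from SUPT4H1 at 76.69 to 83.43 TPM downwards, and CDC73, LEO1, CTR9 and CCNT1 lie between 0.48 and 1.56 TPM.

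Within the PAF1 complex, PAF1 (ENSG00000006712), the subunit that names the complex, was the highest of the 5 members, below WDR61, a further subunit outside the set. PAF1 lies on chromosome 19 from 39385629 to 39391106 on the minus strand (coordinates here are from the RefSeq annotation of GRCh38). PAF1 measured 18.71 and 17.42 TPM in the control libraries against 17.63 and 18.43 TPM in the KO+OE libraries. The KO+OE libraries fell between the control libraries, and the control mean was 18.1 ± 0.912 TPM (SD, n = 2). The log2 fold change of PAF1 was -0.0021, with an interval of -0.19 to 0.19 and a limma adjusted p = 0.997. Its sign turned to positive under median-ratio rescaling and quantile normalization.

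RTF1 (ENSG00000137815), the subunit that promotes ubiquitination of histone H2B, lies on chromosome 15 from 41417095 to 41483563 on the plus strand. RTF1 measured 6.30 and 5.43 TPM in the control libraries against 5.09 and 4.79 TPM in the KO+OE libraries. Both KO+OE libraries were thus below both control libraries. The means were 5.87 ± 0.615 and 4.94 ± 0.212 TPM (SD, n = 2 each) and the log2 fold change was -0.21 with an interval of -0.52 to 0.11 (limma adjusted p = 0.938). Without control replicate 1 it was -0.11.

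CDC73 (ENSG00000134371), which encodes parafibromin, the product of a tumour suppressor gene mutated in familial hyperparathyroidism, lies on chromosome 1 from 193122031 to 193254815. CDC73 measured 0.77 and 0.82 TPM in the control libraries against 1.56 and 0.92 TPM in the KO+OE libraries. Both KO+OE libraries were above the control libraries, the first far more than the second. CDC73 reached the mean of 1 TPM that was asked of genes tested only through KO+OE replicate 1. Its log2 fold change was 0.30 with an interval of -0.27 to 0.88 (limma adjusted p = 0.942). Leaving out KO+OE replicate 1 gave 0.097. Leaving out the second KO+OE library gave 0.51, where limma gave an unadjusted p = 0.0476 and an adjusted p = 0.917.

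LEO1 (ENSG00000166477), the subunit whose association with CFIm25 the study examined, lies on chromosome 15 from 51938025 to 51971778 on the minus strand. LEO1 measured 0.74 and 1.17 TPM in the control libraries against 0.77 and 1.10 TPM in the KO+OE libraries. The KO+OE libraries lay within the control range, and in each group one library was clearly above the other. The control mean was 0.955 ± 0.304 TPM and the KO+OE mean 0.935 ± 0.233 TPM (SD, n = 2 each). LEO1 was under the filter at a mean of 1 TPM. In the fit without a filter its log2 fold change was -0.011 with an interval of -0.59 to 0.57, and the limma adjusted p was 0.998. The replicates of LEO1 thus differed by more than the group means did.

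CTR9 (ENSG00000198730), a scaffold subunit rich in tetratricopeptide repeats, lies on chromosome 11 from 10751246 to 10779746 on the plus strand. CTR9 measured 0.92 and 0.86 TPM in the control libraries against 0.71 and 0.67 TPM in the KO+OE libraries, without overlap between the groups. It too was under the filter. In the fit without a filter its log2 fold change was -0.16 with an interval of -0.55 to 0.23 (limma adjusted p = 0.873).

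Among the 5 members of the complex, PAF1 was first and RTF1 next in every library. PAF1 exceeded RTF1 by a ratio of 2.97 to 3.85 in the 4 libraries, CTR9 by 20.3 to 27.5, LEO1 by 14.9 to 25.3 and CDC73 by 11.3 to 24.3. PAF1 alone made up 67.8% to 71.1% of the summed RNA level of the 5 genes. That sum was 27.44 and 25.70 TPM in the control libraries against 25.76 and 25.91 TPM in the KO+OE libraries, so that it overlapped between the groups. WDR61, the remaining subunit in human cells, which is shared with the SKI complex of RNA decay, was above PAF1 by a ratio of 1.53 to 1.75 and measured 28.69 and 26.92 TPM in the control libraries against 30.94 and 29.98 TPM in the KO+OE libraries. Both KO+OE libraries were above both control libraries, and the log2 fold change of WDR61 was 0.13 with an interval of -0.034 to 0.29 (limma adjusted p = 0.931). In bulk RNA, fewer cells expressing a gene and less RNA per cell cannot be told apart. RNA levels also do not give the amounts of the subunits as proteins, which were not measured here.

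DSIF had the highest levels of the set. SUPT5H (ENSG00000196235), the gene of the large subunit SPT5 that clamps the polymerase on its template, lies on chromosome 19 from 39445582 to 39476670 on the plus strand. SUPT5H measured 58.92 and 67.79 TPM in the control libraries against 58.64 and 61.97 TPM in the KO+OE libraries, and the groups overlapped. Its log2 fold change was -0.067 with an interval of -0.27 to 0.14 (limma adjusted p = 0.965). SUPT4H1 (ENSG00000213246), the gene of the small zinc-finger subunit SPT4, lies on chromosome 17 from 58345178 to 58352201 on the minus strand. SUPT4H1 measured 83.30 and 83.43 TPM in the control libraries against 76.69 and 81.18 TPM in the KO+OE libraries, below both control libraries. The means were 83.4 ± 0.0919 and 78.9 ± 3.17 TPM (SD, n = 2 each), and the log2 fold change was -0.078 with an interval of -0.20 to 0.042 (limma adjusted p = 0.938). Without KO+OE replicate 1 it was -0.038. The ratio of SUPT4H1 to SUPT5H stayed between 1.23 and 1.41 in the 4 libraries.

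SUPT6H (ENSG00000109111), the gene of the histone chaperone SPT6, lies on chromosome 17 from 28662205 to 28702679 on the plus strand. SUPT6H measured 15.42 and 17.01 TPM in the control libraries against 16.60 and 15.65 TPM in the KO+OE libraries. The KO+OE libraries lay between the control libraries. The log2 fold change of SUPT6H was -0.0066 with an interval of -0.22 to 0.21 (limma adjusted p = 0.994), and it was positive under median-ratio rescaling and quantile normalization.

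The RNAs of the kinase and the cyclin of P-TEFb were far apart in level. CDK9 (ENSG00000136807), the kinase, lies on chromosome 9 from 127786034 to 127790792 on the plus strand. CDK9 measured 44.71 and 42.03 TPM in the control libraries against 37.68 and 44.12 TPM in the KO+OE libraries. KO+OE replicate 1 was the lowest library and KO+OE replicate 2 lay within the control range. Its log2 fold change was -0.086 with an interval of -0.32 to 0.14 (limma adjusted p = 0.960), and 0.025 without KO+OE replicate 1. CCNT1 (ENSG00000129315), the cyclin that activates CDK9, lies on chromosome 12 from 48688458 to 48716707 on the minus strand. CCNT1 measured 0.48 and 0.92 TPM in the control libraries against 0.83 and 0.68 TPM in the KO+OE libraries, and both KO+OE libraries lay between the control libraries. Under the filter as well, CCNT1 had a log2 fold change of 0.057 with an interval of -0.48 to 0.60 in the fit without it (limma adjusted p = 0.965). CDK9 exceeded CCNT1 by a ratio of 45.4 to 93.1, and it exceeded the sum of CCNT1 and the related cyclin gene CCNT2 by a ratio of 22.7 to 49.1.

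Taking the set as a whole, 0 of the 7 genes tested had a limma adjusted p under 0.05, as had 1 of 12319 genes in all (0.00812%). At an unadjusted p under 0.05 the count was again 0 of 7, against 5.33% of all genes. The lowest adjusted p among the 7 was 0.938. Of the 7, 1 was higher in both KO+OE libraries than in both control libraries, CDC73, against 14.5% of all genes tested, and 2 were lower, RTF1 and SUPT4H1, against 19.6%. CDC73 was among the 7 only through its level in KO+OE replicate 1. With such shares in the background, these separations are not a result about the set. The median log2 fold change of the 7 genes was -0.067, and that of all genes tested was -0.012. The 95% interval lay within 1.5-fold in either direction for 6 of the 7 genes, all but CDC73, and for 71% of all genes tested. With 2 libraries against 2, an exact permutation test of a single gene cannot give a p under 0.333.

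**Figure D2:**
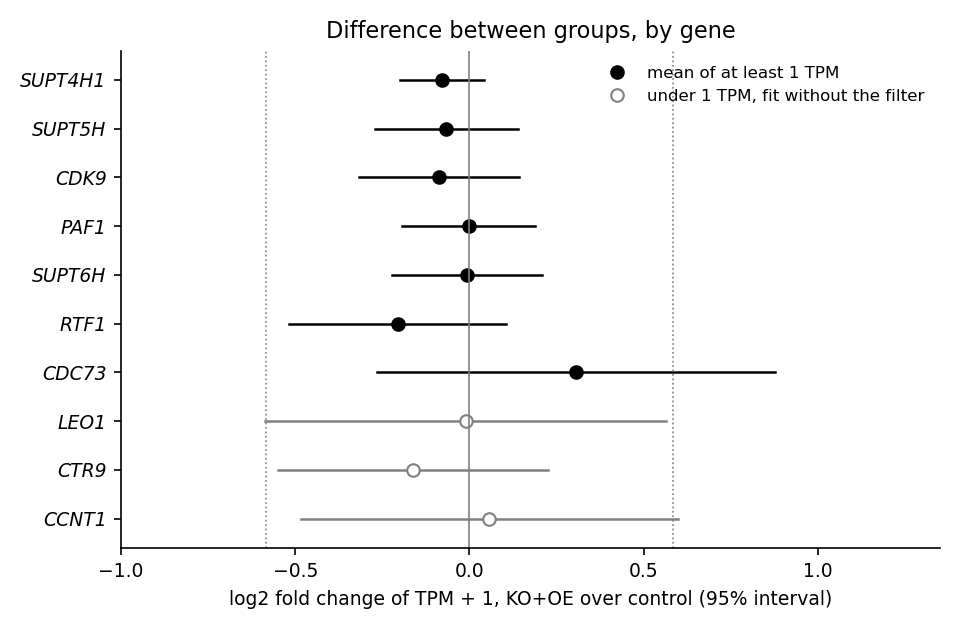
Log2 fold change of TPM + 1, KO+OE over control, for each gene with its 95% interval from limma (n = 2 libraries per group); filled points are genes that averaged 1 TPM or more, open points come from the fit without that filter, and dotted lines mark 1.5-fold. All intervals include 0, and those of CDC73, LEO1 and CCNT1 reach past a dotted line.

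The spread between replicates varied among genes of like level within the set, where each value is a single difference between 2 libraries. In log2(TPM + 1), control replicates differed most for CCNT1, by 0.38, and LEO1, by 0.32, but those of CDC73 and CTR9, also near 1 TPM, differed by only 0.040 and 0.046. For SUPT5H the difference was 0.20, for RTF1 0.18, for SUPT6H 0.13, for PAF1 0.098, for CDK9 0.087 and for SUPT4H1 0.0022. Among all genes tested, the median difference between control replicates was 0.19 for genes at 1 to 5 TPM, 0.10 at 5 to 50 TPM and 0.044 above. In KO+OE, the replicates of CDC73 differed by 0.42, the largest such difference in the set. Those of LEO1 differed by 0.25, of CDK9 by 0.22, of CCNT1 by 0.12 and of CTR9 by 0.034.

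**Figure D3:**
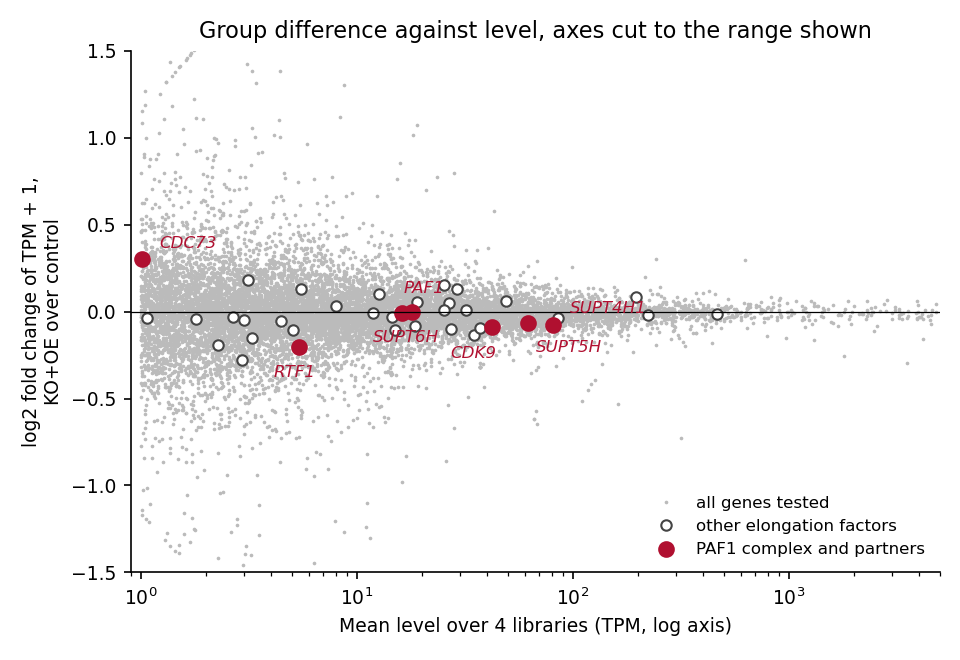
Log2 fold change of TPM + 1, KO+OE over control, against the mean level in TPM (log axis) for the genes tested; grey points are all genes, open circles the other elongation factors and red points the 7 genes of the set, with both axes cut so that some grey points are not shown. The red points lie inside the grey cloud, which widens towards low levels, where CDC73 sits at 0.30.

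Further genes of elongation were taken from a list of 37, of which 31 averaged 1 TPM or more. In limma, 0 of the 31 had an adjusted p under 0.05, and the unadjusted p was under 0.05 for 0 of them. Their log2 fold changes ran from -0.28 to 0.18 with a median of -0.030, 12 above 0 and 19 below. In 5 of the 31 both KO+OE libraries were above the control libraries and in 3 both were below, shares to be read against the same 14.5% and 19.6%.

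By mean level, the 37 genes ran from 0.405 to 465 TPM. For NELF, the pausing factor, the genes of all 4 subunits were well expressed, from NELFCD at 25.5 TPM to NELFE at 223 TPM (means over 4 libraries). Among the 6 listed genes that regulate or bind P-TEFb, with the cyclin gene CCNT2 and without CDK9 and CCNT1 of the set, MEPCE, which caps the 7SK RNA, was highest at 31.9 TPM and CCNT2 lowest at 0.518 TPM. Of the histone chaperones and the SPT6 partner IWS1, the FACT subunit SSRP1 was at 196 TPM and IWS1 at 5.07 TPM. The 9 genes of the super elongation complex, which carries P-TEFb to paused polymerase, had a median of 1.07 TPM, and 4 of them were under the filter. In this group MLLT1, a reader of acetylated histones, reached 19.0 TPM and EAF2 0.405 TPM. For elongin and TFIIS, factors that help stalled polymerase onward, ELOB was at 465 TPM and ELOA at 8.01 TPM. ELOB is also part of ubiquitin ligases. Of the kinases that act later on the polymerase, the cyclin gene CCNK was at 37.1 TPM and its partner CDK12 at 1.81 TPM. Among enzymes of histone marks of transcribed genes, RNF40, a ligase for H2B, was at 26.8 TPM and the methyltransferase gene SETD2 at 0.698 TPM.

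Within the set, the low genes had transcripts poorer in G and C than the others. There, CDC73, CCNT1, LEO1 and CTR9 had canonical transcripts with 34.3%, 40.3%, 42.3% and 43.1% GC, and the other 6 genes had 46.7% (RTF1) to 58.0% (SUPT5H). The Spearman correlation between level and GC content over the 10 genes was 0.76 to 0.84 in the 4 libraries, and over the coding part alone it was 0.77 to 0.82. With transcript length it was -0.58 to -0.41. Over all 47 elongation genes, the set and the list together, the correlation with GC content was 0.66 to 0.68, and over 17056 protein-coding genes it was 0.28 to 0.29. These are descriptions across genes measured in the same libraries, and genes are not independent replicates. Of the 47 genes, the 19 below 45% GC had a median of 1.02 TPM with 9 under 1 TPM. The 14 genes from 45% to 55% had a median of 12.1 TPM and the 14 genes above 55% one of 33.4 TPM, with 0 under 1 TPM in either class. In the same classes of all protein-coding genes, the medians were 0.995, 3.61 and 7.30 TPM. There, 2934 of 5856, 1795 of 5405 and 1546 of 5795 genes were under 1 TPM. SUPT4H1 departs from the order, as the highest gene of the set with 47.7% GC. The part of base composition in the measured levels was not tested.

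**Figure D4:**
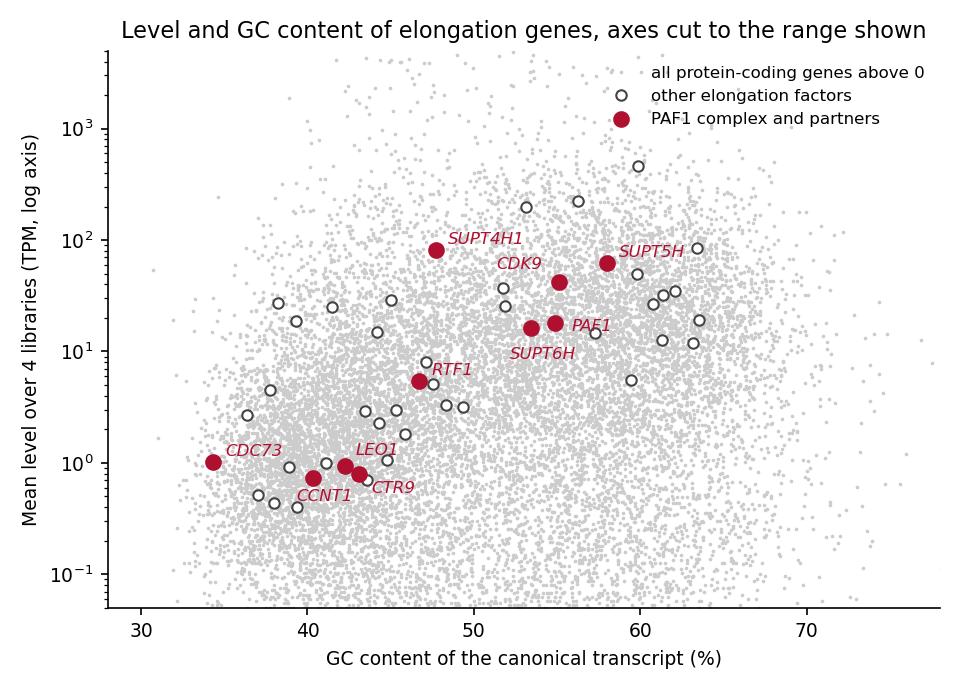
Mean level over 4 libraries in TPM (log axis) against the GC content of the canonical transcript in percent; red points are the 10 genes of the set, open circles the 37 other elongation factors and grey points all protein-coding genes listed above 0, with both axes cut. The 4 lowest red points lie left of 45% GC, from CDC73 at 34.3% to CTR9 at 43.1%.

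The 3′ untranslated regions of the set varied in length and in TGTA content. They ran from 131 bases in LEO1 to 4575 bases in CCNT1, against a median of 1110 bases for the genes tested. LEO1 had 4 TGTA in its 131 bases, or 30.5 per kb, a density above that of 99.9% of the genes tested, and its region held only 18.3% GC. RTF1 had 30 TGTA, or 10.4 per kb, and CDC73 had 33, or 8.04 per kb. CDK9 had none in 1249 bases and PAF1 had 1 in 362 bases. The motif is common, and at least 1 TGTA was found in 85.4% of the 10735 regions, at a median of 4.41 per kb. The density fell with GC content across these regions (Spearman correlation -0.63), and whether CFIm25 binds any of these places was not measured here.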

How the data were processed

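Poly(A)+ RNA was sequenced from 4 libraries, 2 control and 2 KO+OE, grouped by sample title. The authors deposited 1 table with a column per library and no unit in its header. Its values were read as TPM, since they hold decimals and the deposited columns sum to 986853 to 987078. The submitters' processing notes name HISAT2, featureCounts, Subread, DESeq2 and hg38, and the annotation release is not given in the sources used here. TPM depends on the transcript length assigned to a gene and on the other genes of a library, and it holds no counts, so no counting error was computed and the DESeq2 test named in the study's methods could not be used. There were 0 other columns of per-sample values.

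Tests used log2(TPM + 1), which understates fold changes of low genes. Genes averaging 1 TPM or more (12319) were fitted in R 4.3.3 by limma 3.58.1, with the prior variance of eBayes allowed to depend on the mean and group as the only term, two-sided, with Benjamini-Hochberg adjustment over all genes tested. Intervals are limma's at 95%. The step was tested on simulated data. Recovery of changes was tallied there only for genes well above 1 TPM, so it was not assessed for the low members. Genes named are the 10 members, NUDT21, POU5F1, SOX2 and NANOG, and of the list of 37 the highest and lowest of each role group and any with an unadjusted p under 0.05, of which there were 0. SOX17, THY1, VIM, COL1A1, COL1A2, COL3A1, NES and GATA6 were named after their values were seen. The members and lists were chosen with earlier results of these data known. Genes of like pattern were not sought, as 4 libraries are too few.

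GC content, lengths and 3′ untranslated regions came from the canonical transcripts of GENCODE release 44 lifted to GRCh37, matched by identifier (98.6% of the genes tested), with no coordinates taken from it. Gene positions and promoters came from RefSeq on GRCh38 by symbol. The authors' own transcript models may differ. Alternatives were a pseudocount of 0.1 or 5, a filter at 5 TPM or none, median-ratio or quantile scaling, a constant prior variance, a block for replicate number, and the omission of single libraries. Python 3.11.15 was used with scipy 1.17.1, numpy 2.4.6 and pandas 2.3.3.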

Additional observations from a re-analysis of the deposited data

How the results depend on the processing

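In 86 alternative fits of single members, 0 passed an adjusted p of 0.05 in limma and 1 an unadjusted p of 0.05, CDC73 without KO+OE replicate 2; the lowest adjusted p was 0.873. PAF1 and SUPT6H turned sign to 0.010 and 0.0055 with median-ratio rescaling and to 0.0081 and 0.0083 with quantile normalization. Leaving out 1 library each, where the lone library of a group is assumed to vary like the others, the log2 fold change ran from -0.012 to 0.066 for NUDT21, from -0.051 to 0.047 for PAF1, from -0.17 to 0.032 for SUPT5H, from -0.073 to 0.060 for SUPT6H, from -0.20 to 0.025 for CDK9, from -0.17 to 0.15 for LEO1 and from -0.13 to 0.24 for CCNT1, so that 6 of the 10 members turned sign. With pseudocounts of 0.1 and 5, CDC73 moved from 0.30 to 0.54 and 0.10, CTR9 from -0.16 to -0.33 and -0.050, CCNT1 from 0.057 to 0.15 and 0.015, and RTF1 from -0.21 to -0.24 and -0.13. Single libraries moved CDC73 from 0.097 to 0.51, RTF1 from -0.30 to -0.11 and SUPT4H1 from -0.12 to -0.038. For the members under the filter, quantile normalization and the filter at 5 TPM gave no value. Over all genes, the count at an adjusted p of 0.05 was 0 with either pseudocount, with no filter, with the filter at 5 TPM, with quantile normalization and with the replicate block, and ran from 0 to 1 leaving out a library; at an unadjusted p of 0.05 it was 1314 with no filter and 412 with the filter at 5 TPM. The cause of these changes was not tested, save that a filter changes the genes tested. Deviations of same-numbered libraries correlated at -0.049. The labels do not say whether such libraries were paired, and this value cannot settle it. The replicate block gave 673 genes at an unadjusted p of 0.05 in limma and changed no call of a member. Depth is unknown, and the intervals were widest for the members near 1 TPM.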

Other observations

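RefSeq start sites on GRCh38 gave a window of 250 bases before to 50 bases after the start for 9 of the 10 genes. GC content ran from 57.7% in LEO1 to 82.0% in CDK9, against a median of 58.7% for 35116 promoters. The windows held 23 to 46 CG pairs, where the median of all promoters was 14. Such counts were not particular to the set. Among the other elongation factors with a window they ran from 1 in HEXIM2 to 48 in NELFB, many of them within the range of the set. In the 250 bases before the start, read on the strand of the gene, 0 of the 9 held TATAAA, as against 6.8% of all promoters. LEO1 and PAF1 had promoters of 57.7% and 59.3% GC and 24 and 23 CG pairs. The relation of promoter composition to RNA level was not tested.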
